A study of Mus musculus with 6 samples.

Results

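Phrenic motor neurons are the cervical motor neurons that drive the diaphragm, and 6 genes described in publications as dependent on Hox5 proteins or enriched in phrenic motor neurons were followed here: Pou3f1, Ptn, Alcam, Negr1, Pcdh10 and Cdh10. Every probe annotated to 1 of these symbols was taken, detected or not, which gave 13 probes of 45281 on the array and 6 genes of 19057 named ones. RNA came from cervical motor neurons of mouse embryos at stage e12.5, sorted by fluorescence from HB9::GFP embryos of mixed background (c57/bl6, balbc and fvb), with 3 samples labelled wild type and 3 labelled Hox5 mutant, each on its own array. The mutant genotype in the series title joins Hoxa5 fl/fl alleles and Olig2-Cre, which recombines in motor neuron progenitors and their descendants, with Hoxc5-/-. Hoxb5 is not named as altered. The labels do not state whether the wild-type embryos carried a floxed allele or Cre, and do not say how many embryos went into each sample, so the spread behind each p-value is that between 6 RNA samples and may be partly technical. The sort collected all cervical motor neurons, of which phrenic cells are a part, and in such bulk RNA fewer cells of a type cannot be told apart from less RNA per cell.

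Hox5 proteins are homeodomain transcription factors that act with PBX and MEIS cofactors in neurons at brachial and cervical levels of the spinal cord. In phrenic motor neurons they are known for roles in the clustering of cell bodies, in survival, and in the branching of axons on the diaphragm. Adhesion molecules and secreted factors are the kind of genes through which motor neurons of 1 pool settle together and reach 1 muscle.

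None of the 6 genes passed, and the 3 values of each group overlapped for all 6. The brightest detected probe of Alcam was 0.83 higher on the log2 scale on the arrays labelled mutant and that of Pcdh10 0.41 lower, the sizes farthest from 0, and both intervals spanned 0. In limma's test over 13638 features, 0 of the 6 genes reached an adjusted p of 0.05, beside 0% of all features, and 0 of 6 an unadjusted p of 0.05, beside 1.83%. Groups without overlap were found for 0 of the 6 and for 5.51% of all features. Of the 6 differences 4 were above 0, beside 47.4% of all features, and their median was 0.056 beside −0.014 over all features. Mutant replicate 1 was the highest or the lowest of the 6 arrays for 5 of the 6 genes, and for 61.3% of all features. Without mutant replicate 1, 0 of the 6 genes reached an unadjusted p of 0.05, beside 2.47% of all features, and without both arrays numbered 1 it was 0 of 6 beside 3.78%. Each difference is given with and without mutant replicate 1 below.

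**Figure D1:**
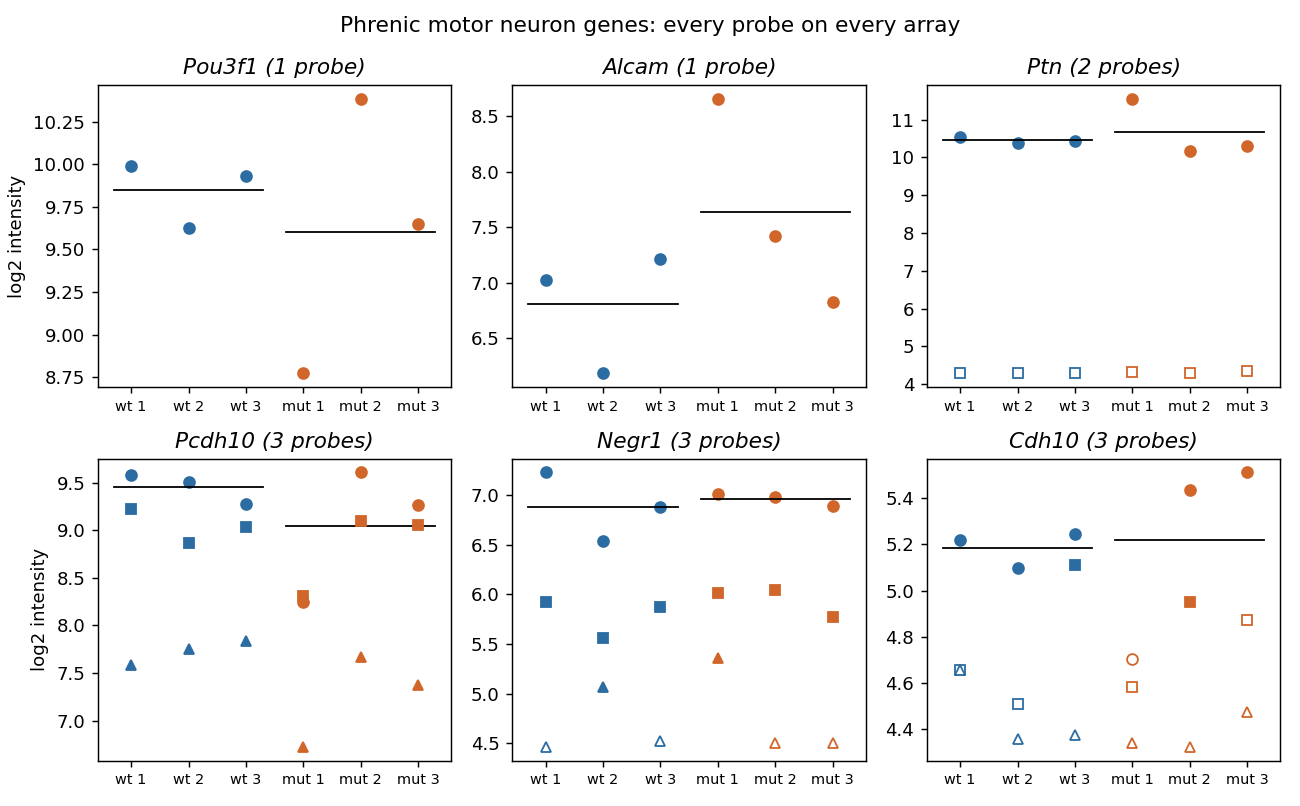
Log2 intensity (vertical axis) of every probe of the 6 genes on each of the 6 arrays (horizontal axis), wild type in blue and labelled mutant in orange. Each marker shape is 1 probe, filled where detected at p under 0.05 and open where not, and black lines are the group means of the probe that represents the gene. Mutant replicate 1 is the lowest array for Pou3f1 and for all 3 Pcdh10 probes and the highest for Alcam and for the detected Ptn probe.

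Between 19307 and 20307 probes per array were detected, with group means of 19683 for wild type and 19678 for mutant (two-sided exact permutation test, p = 1, smallest possible 0.1). The median deposited signal, before normalization, was 97.7 to 102.5 on the wild-type arrays and 103.9 to 109.8 on the mutant arrays, which did not overlap (means 100.6 and 106.5, two-sided exact permutation test, p = 0.1, the smallest possible). All 10 motor neuron markers looked for were measured, 8 of them on every array, among them Chat, the gene of the acetylcholine-synthesising enzyme. Of 14 interneuron markers 12 were measured, 11 of them on every array, and 7 of 10 progenitor and glial markers on every array. Olig2 and Pax6, of the progenitor and glial list, were detected on no array. Such detection counts do not show how pure the sort was. The Hoxa5 probe was detected on all arrays, at 13.99 ± 0.0433 (SD, n = 3) for wild type and 13.54 ± 0.348 (SD, n = 3) for mutant, and Hoxc5 was at 6.58 ± 0.105 (SD, n = 3) and 7.31 ± 0.633 (SD, n = 3). Hoxb5 was at 13.02 ± 0.313 (SD, n = 3) and 12.73 ± 0.342 (SD, n = 3). The positions of these probes relative to the deletions were not known, so they do not check the genotype, and "mutant" below stands for the label. Markers of blood, endothelium and mesenchyme stood high on mutant replicate 1. There, relative to the wild-type mean, 12 interneuron markers had a median of −0.90 and 5 sensory neuron and neural crest markers one of −0.58. Those 5, which share Isl1 with the motor neuron markers, were mixed. Over all arrays Foxd3 and Sox10 were higher on the mutant arrays, by 0.21 and 0.54, and the other 3 were lower. Without mutant replicate 1 Foxd3 was at 0.23 and Sox10 at −0.44. For blood, 7 of 10 markers were measured, with a summed linear intensity of 1339 to 10625 on the wild-type arrays, 2278 and 3113 on mutant replicates 2 and 3, and 73058 on mutant replicate 1. For endothelium (4 of 10 measured) the sums were 245 to 393 for wild type, 257 and 344 for mutant replicates 3 and 2, and 1884 for mutant replicate 1. For mesenchyme (5 of 10 measured) they were 1482 to 3609 for wild type, 1218 and 3244 for mutant replicates 3 and 2, and 14756 for mutant replicate 1. Tie1, an endothelial receptor gene, was detected on no array. How much these cells contribute to the values of the 6 genes was not tested.

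Pou3f1, also known as Oct6 or Scip, encodes a POU-domain transcription factor that marks phrenic motor neurons among cervical motor neurons. Its 1 probe (ILMN_1233172; gene on chromosome 4) gave log2 intensities of 9.99, 9.63 and 9.93 on wild-type replicates 1, 2 and 3 and of 8.77, 10.38 and 9.65 on mutant replicates 1, 2 and 3. The mutant arrays thus held both the highest and the lowest of the 6 values. The deposited signals behind them were 1212.9, 747.9 and 972.4 for wild type and 519.1, 1467.9 and 991.6 for mutant. The group means were 9.85 ± 0.195 (SD, n = 3) and 9.60 ± 0.807 (SD, n = 3), a difference of −0.25 (95% interval −1.16 to 0.67; limma adjusted p = 0.997). On the ratio scale the interval ran from 44.7% to 158.7% of the wild-type level and so covered a loss as well as a gain. The difference without mutant replicate 1 was 0.17 (−0.43 to 0.76), and the interval then ran from 74.4% to 169.3% of wild type.

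Ptn encodes pleiotrophin, a secreted heparin-binding growth factor that promotes neurite outgrowth. Its detected probe (ILMN_2638114; chromosome 6) gave 10.54, 10.38 and 10.43 on the wild-type arrays and 11.56, 10.18 and 10.29 on mutant replicates 1, 2 and 3. Mutant replicate 1 stood above every other array by about 1 log2 unit, while mutant replicates 2 and 3 stood below all 3 wild-type arrays. The difference was 0.23 (95% interval −0.63 to 1.08; limma adjusted p = 0.997) over all arrays and −0.21 (−0.57 to 0.14) without mutant replicate 1. The wild-type SD of this probe was 0.0839 and the mutant SD 0.764 (n = 3 each). The other Ptn probe, ILMN_1248991, was detected on no array, with log2 values from 4.28 to 4.34 in every sample, and gives no level for the gene.

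Alcam encodes an immunoglobulin-family adhesion molecule that binds itself and CD6 and is carried by growing motor and sensory axons. Its 1 probe (ILMN_2606804; chromosome 16) gave 7.02, 6.18 and 7.21 on the wild-type arrays and 8.66, 7.42 and 6.83 on mutant replicates 1, 2 and 3. Mutant replicates 1 and 2 stood above all wild-type arrays, and mutant replicate 3 inside their range. In deposited signal the arrays read 226.5, 136.8 and 210.7 for wild type and 486.1, 261.5 and 207.9 for mutant. The means were 6.81 ± 0.549 (SD, n = 3) and 7.64 ± 0.935 (SD, n = 3), a difference of 0.83 (95% interval −0.33 to 2.0; limma adjusted p = 0.997), or a ratio of 1.78 with an interval from 0.793 to 3.995. Without mutant replicate 1 the difference was 0.32 (−0.49 to 1.13). The wild-type arrays alone spanned 1.03 log2 units, the widest wild-type range of the 6 genes, so the difference without that array was smaller than the spread within wild type.

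Negr1 encodes a neuronal adhesion molecule of the IgLON family, held to the membrane by a lipid anchor. Its brightest probe (ILMN_2689346; chromosome 3) gave 7.23, 6.54 and 6.87 on the wild-type arrays and 7.01, 6.98 and 6.89 on mutant replicates 1, 2 and 3. The 3 mutant values lay close together and inside the wild-type range. This was the 1 gene of the 6 for which mutant replicate 1 was neither the highest nor the lowest array. The difference was 0.080 (95% interval −0.39 to 0.55; limma adjusted p = 0.997) and 0.055 (−0.47 to 0.58) without mutant replicate 1, and the interval over all arrays ran from 76.2% to 146.8% of the wild-type level. A second detected probe, ILMN_3115242, gave 5.92, 5.56 and 5.87 for wild type and 6.01, 6.04 and 5.77 for mutant, a difference of 0.16. The third, ILMN_1249071, annotated to another transcript, was detected on wild-type replicate 2 and mutant replicate 1 only.

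Pcdh10 encodes a delta protocadherin, a cadherin-like cell surface protein that mediates weak homophilic contact and takes part in axon growth and cell sorting. Its brightest probe (ILMN_2663752; chromosome 3) gave 9.57, 9.51 and 9.28 on the wild-type arrays and 8.24, 9.61 and 9.27 on mutant replicates 1, 2 and 3. Mutant replicate 1 was more than 1 log2 unit below every other array, mutant replicate 2 was the highest of all 6, and mutant replicate 3 lay just below the wild-type range. The difference was −0.41 (95% interval −1.23 to 0.40; limma adjusted p = 0.997) over all arrays and −0.017 (−0.45 to 0.41) without mutant replicate 1. Probe ILMN_1228833, annotated to the same transcript, gave 9.22, 8.87 and 9.03 for wild type and 8.30, 9.10 and 9.05 for mutant. Probe ILMN_2727239, annotated to another transcript, gave 7.58, 7.75 and 7.83 for wild type and 6.72, 7.66 and 7.37 for mutant. All 3 probes thus had their lowest value on mutant replicate 1, −1.21, −0.74 and −1.0 away from the mean of the wild-type arrays. Their differences were −0.41, −0.22 and −0.47 over all arrays, and −0.017, 0.034 and −0.20 without that array.

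Cdh10 encodes a type II classical cadherin, a calcium-dependent adhesion protein of the family whose combinations help motor neurons gather into pools. Its brightest probe (ILMN_2697571; chromosome 15) was near background, at deposited signals of 117.1, 105.5 and 113.3 for wild type and 103.8, 125.9 and 133.4 for mutant replicates 1, 2 and 3, where the lowest detected signal of any probe was 101.9 to 116 per array. In log2 intensity these were 5.22, 5.10 and 5.24 against 4.71, 5.44 and 5.51. Mutant replicate 1, on which the probe was not detected, was the lowest array, and mutant replicates 2 and 3 were above all 3 wild-type arrays. The difference was 0.032 (95% interval −0.53 to 0.59; limma adjusted p = 0.997) over all arrays and 0.29 (−0.060 to 0.63) without mutant replicate 1. Fold changes this close to background are compressed by the offset added before log2. The second probe, ILMN_2745139, was detected on wild-type replicate 3 and mutant replicate 2, and the third, ILMN_1246665, on no array.

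Hox proteins bind DNA with a TAAT core, and with PBX partners bind longer composite sites, so the 300 bases around the annotated starts of the genes (250 before, 50 after; RefSeq, GRCm38.p6) were searched on both strands for TAAT and for TGATNNAT, a form of the composite site. Of the 5 genes with an entry, Alcam, Ptn, Pcdh10, Negr1 and Cdh10, only Cdh10 held TAAT, at 3 places that begin 215, 153 and 117 bases before the start, where 58% of 32851 promoters of this length held it. Only Negr1 held TGATNNAT, 101 bases before the start, where 8.85% of promoters did. GC content was 69.7% for Alcam, 52% for Ptn, 62.3% for Pcdh10, 68% for Negr1 and 37.7% for Cdh10, against a median of 52.7% over all promoters. These promoters are printed 5′ to 3′ on the gene's strand, with either motif in capitals: Cdh10 (chr15:18820079-18820378, plus strand) and Negr1 (chr3:156561544-156561843, plus strand), which hold a match, and Pcdh10 (chr3:45378148-45378447, plus strand), which holds none.
Cdh10: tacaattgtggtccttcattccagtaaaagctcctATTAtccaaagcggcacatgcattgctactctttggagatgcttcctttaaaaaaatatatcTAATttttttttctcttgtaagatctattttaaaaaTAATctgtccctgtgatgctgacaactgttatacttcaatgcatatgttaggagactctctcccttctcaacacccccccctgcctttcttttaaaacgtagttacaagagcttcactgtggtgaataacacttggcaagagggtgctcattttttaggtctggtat
Negr1: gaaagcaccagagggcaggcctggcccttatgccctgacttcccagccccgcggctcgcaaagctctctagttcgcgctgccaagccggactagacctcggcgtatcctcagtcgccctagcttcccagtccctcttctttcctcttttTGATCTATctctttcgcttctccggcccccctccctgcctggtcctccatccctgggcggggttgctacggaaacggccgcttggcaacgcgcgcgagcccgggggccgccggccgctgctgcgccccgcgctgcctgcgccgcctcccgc
Pcdh10: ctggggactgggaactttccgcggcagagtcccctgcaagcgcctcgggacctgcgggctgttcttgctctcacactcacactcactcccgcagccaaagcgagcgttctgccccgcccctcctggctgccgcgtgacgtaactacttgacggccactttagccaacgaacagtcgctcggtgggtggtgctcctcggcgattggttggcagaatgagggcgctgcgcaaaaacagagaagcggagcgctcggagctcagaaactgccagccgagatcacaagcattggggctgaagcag
A match describes letters in this window and does not show binding.

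**Figure D2:**
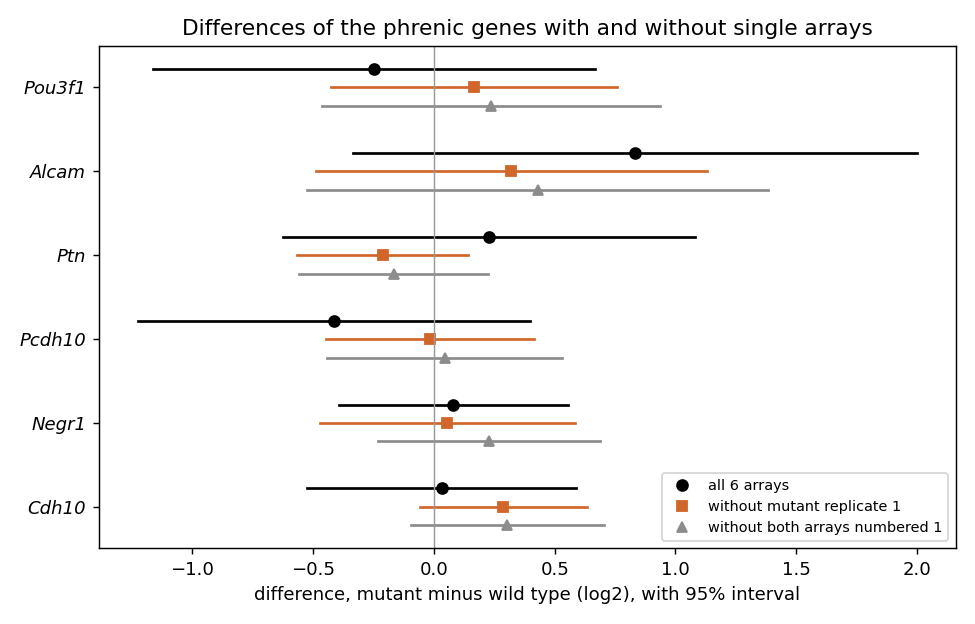
Difference, mutant minus wild type, in log2 intensity (horizontal axis) for the probe that represents each of the 6 genes (vertical axis), with lines for the 95% interval from limma. Black circles use all 6 arrays, orange squares leave out mutant replicate 1 and grey triangles leave out both arrays numbered 1; every interval spans 0, and Pou3f1 and Ptn change sign when mutant replicate 1 is left out.

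Array by array, the genes fell into different profiles. Relative to the wild-type mean, mutant replicate 1 stood at −1.08 for Pou3f1, −1.21 for Pcdh10 and −0.48 for Cdh10, at 1.11 for Ptn and 1.85 for Alcam, and at 0.13 for Negr1. On the same array the median of 10 motor neuron markers was at −0.59 and that of 12 interneuron markers at −0.90. The medians there were 1.36 for 7 progenitor and glial markers, 2.59 for 4 endothelial, 2.38 for 5 mesenchyme and 4.47 for 7 blood markers. Mutant replicate 2 stood at 0.54 for Pou3f1 and 0.62 for Alcam, with motor neuron markers at 0.27. Mutant replicate 3 stood at −0.20 for Pou3f1 and 0.022 for Alcam, with motor neuron markers at −0.55. On wild-type replicate 1 blood markers stood at 1.84, progenitor and glial markers at 0.64, endothelial markers at 0.35 and mesenchyme markers at 0.28 relative to a mean that includes that array, and the 6 genes lay 0.031 to 0.35 above their means. With both arrays numbered 1 left out, a choice made after seeing these markers, the differences were 0.24 for Pou3f1, −0.17 for Ptn, 0.43 for Alcam, 0.23 for Negr1, 0.044 for Pcdh10 and 0.30 for Cdh10, each with a limma adjusted p of 0.999.

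**Figure D3:**
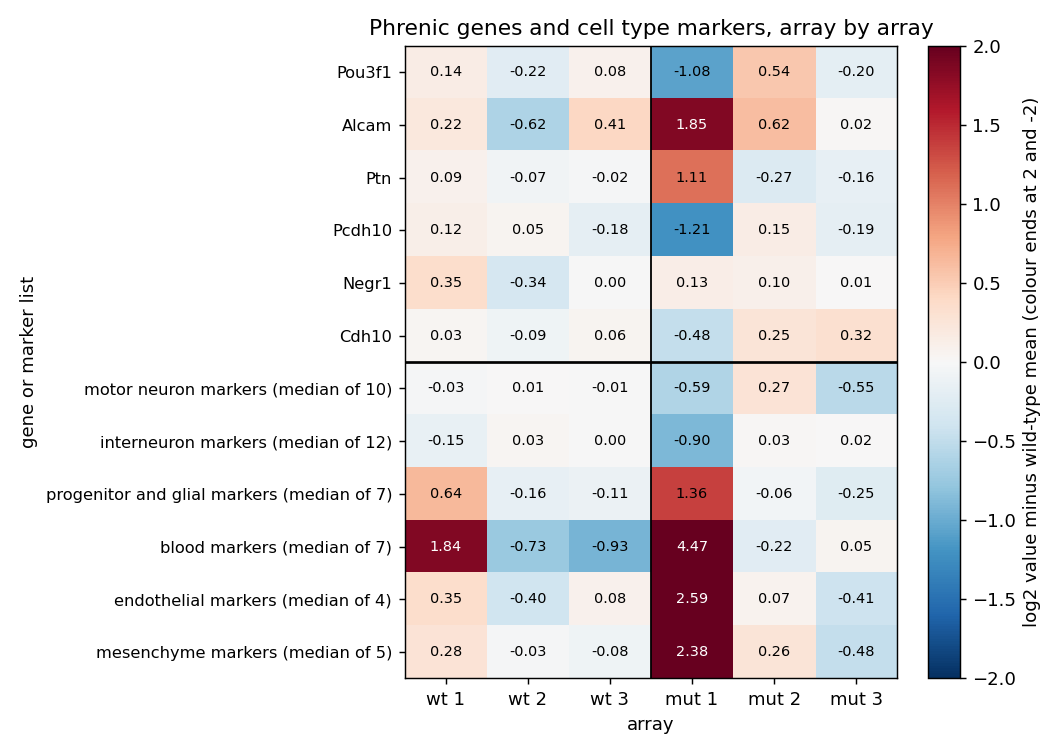
Log2 value minus the wild-type mean on each array (columns) for the 6 genes (upper rows) and the median over each marker list (lower rows), printed in each cell and shown as colour, which stops at 2 and −2. On mutant replicate 1, Alcam at 1.85 and Ptn at 1.11 are above the wild-type mean together with blood, endothelial and mesenchyme markers, and Pou3f1 at −1.08 and Pcdh10 at −1.21 are below it together with motor neuron and interneuron markers.

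The closest pair of the 6 profiles was Pou3f1 with Pcdh10, with a root mean square distance of 0.210 log2 units over the 6 centred arrays, and the farthest was Alcam with Pcdh10, at 1.16. Alcam and Ptn were 0.472 apart. Among 10437 other named genes, the profile nearest to Pou3f1 was that of Hoxa3, a Hox gene of hindbrain and upper cervical levels, at a distance of 0.126, followed by the chromatin remodelling gene Smarcc1 at 0.127. Hoxa3 read 7.09, 6.81 and 7.05 on the wild-type arrays and 6.14, 7.40 and 6.98 on mutant replicates 1, 2 and 3. Nearest to Alcam were the claudin gene Cldn10 at 0.188 and the cilium gene Rsph9 at 0.197, nearest to Ptn the phospholipase gene Plcb3 at 0.0504 and Ctdsp1 at 0.0547. For Pcdh10 they were Myo18b at 0.0685 and Tbc1d9 at 0.0752, for Negr1 Rpl7l1 at 0.0456 and Sfxn1 at 0.0570, and for Cdh10 Csmd3 at 0.0377 and Rrp1 at 0.0442. These distances describe 6 arrays and say nothing of shared function or control.

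Relatives and partners of the 6 genes were counted the same way, and 0 members of any list passed the adjusted threshold. All 5 measured POU factors other than Pou3f1 were lower on the mutant arrays, by a median of −0.39 beside −0.014 for all features. Of the 5, 4 had their lowest and 0 their highest value on mutant replicate 1. It was the highest or lowest array for 61.3% of all features. Pou3f4, a close paralog of Pou3f1, stood at 7.29, 7.11 and 7.06 for wild type and 5.48, 7.01 and 6.98 for mutant. Its groups thus did not overlap, as for 5.51% of all features (difference −0.66, 95% interval −1.63 to 0.30). Pou4f1, a sensory neuron and interneuron factor, differed by −0.39. Without mutant replicate 1 all 5 were still lower and the list median was −0.12, with Pou3f4 at −0.16 and Pou4f1 at −0.076. Pou6f1 moved farther from 0, from −0.23 (limma unadjusted p = 0.904) to −1.04. Of the 5 factors 3 were detected on every array, and Pou6f1 was not among these.

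Of 13 measured receptors and partners of pleiotrophin 10 were higher, with a median of 0.17. Mutant replicate 1 was the highest array for 10 of the 13, as for Ptn, and the lowest for 2. It was the highest or lowest array for 61.3% of all features. Lrp1, a large endocytic receptor, stood at 6.54, 6.42 and 6.50 for wild type and 6.99, 6.73 and 7.11 for mutant, groups that did not overlap, as for 5.51% of all features. Its difference was 0.45 (95% interval 0.083 to 0.82; limma adjusted p = 0.997), and 0.43 without mutant replicate 1. The heparan sulphate proteoglycan gene Sdc2 was at 0.79 with all arrays and −0.088 without mutant replicate 1, and the list then had 5 of 13 higher and a median of −0.054. The receptor tyrosine phosphatase gene Ptprz1, the best known pleiotrophin receptor, was at 0.17 and −0.054 in the same 2 comparisons.

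Of 10 measured adhesion genes, of the IgLON, L1 and NCAM families and other immunoglobulin-family genes, 4 were higher (median −0.069). The IgLON gene Iglon5 was at −0.28 and Ncam2 at −0.26. Without mutant replicate 1 the median of these 10 genes was −0.031. Of 6 other delta protocadherins 5 were lower (median −0.14). Mutant replicate 1 was the lowest array for these 5, as for Pcdh10, and the highest for the 1 other. It was highest or lowest for 61.3% of all features. Pcdh20, detected on 3 wild-type and 2 mutant arrays, was at −0.56, and Pcdh1, detected on 2 arrays of each group, at 0.40. Without mutant replicate 1 Pcdh20 was at −0.24, Pcdh1 at 0.092 and the list median at −0.023. Of 13 other type II cadherins and catenins, the cytoplasmic partners of cadherins, 9 were lower (median −0.11), with Cdh7 at −0.42 and Cdh11 at 0.23. This median was −0.075 without mutant replicate 1. Of 8 Hox cofactors of the PBX, MEIS and PKNOX families 6 were lower (median −0.14), with Meis2 at −0.44 and Meis1 at −0.23, and without mutant replicate 1 the list was split, 4 higher and 4 lower (median 0.021).

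**Figure D4:**
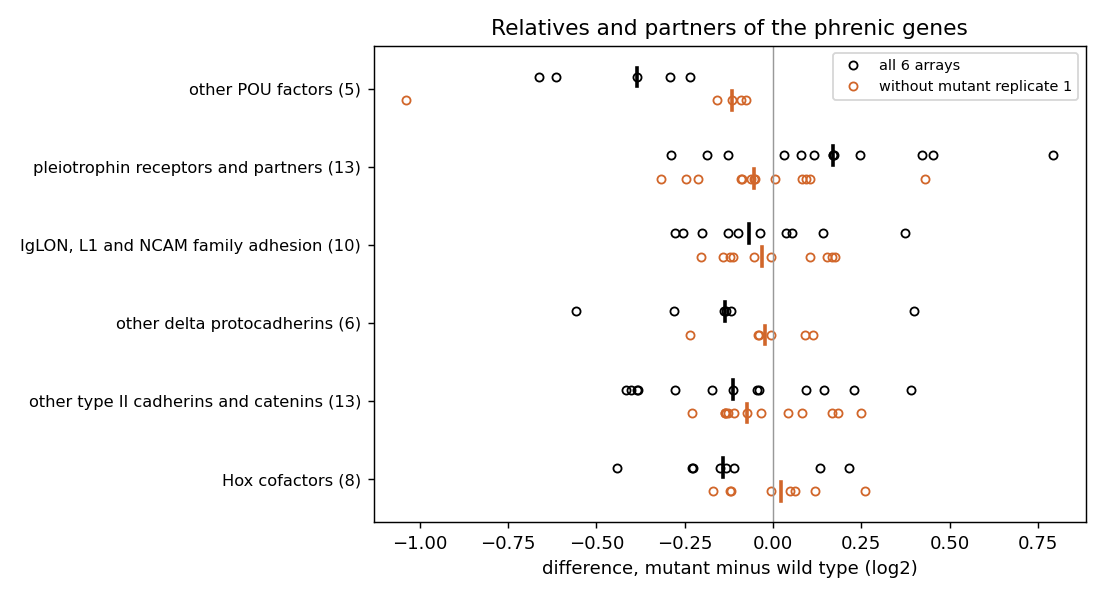
Difference, mutant minus wild type, in log2 intensity (horizontal axis) for each measured gene (circle) of 6 lists of relatives and partners (vertical axis, number measured in brackets), with vertical bars at the list medians. Black uses all 6 arrays and orange leaves out mutant replicate 1; the medians of POU factors and pleiotrophin partners move from −0.39 to −0.12 and from 0.17 to −0.054.

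Among the markers, Lhx3, a LIM homeobox gene of motor neurons, was at −0.66 and Chat at −0.38, and the 10 motor neuron markers had a median difference of −0.30, with 9 of 10 lower. Without mutant replicate 1 that median was −0.11. Of 12 interneuron markers 11 were lower, with a median difference of −0.33. Without mutant replicate 1, 6 of the 12 were higher and the median was −0.0020. That array was the lowest for 10 of the 12, and the highest or lowest for 61.3% of all features. The embryonic globin gene Hbb-bh1 differed by 1.77. For endothelial junctions Esam was at 1.09 and Cldn5 (detected on 2 arrays of each group) at 1.26, and for mesenchyme Fstl1 was at 0.70 and Twist1 at 0.71. Fech, which encodes the last enzyme of haem synthesis, was below detection on every wild-type array and detected on all 3 mutant arrays. It passed the filter through the mutant arrays alone, so its direction gives no evidence of a difference. Its mutant values of 4.92, 5.06 and 4.93 lay near the lowest detected log2 levels of those arrays, 4.87, 4.90 and 4.92. The mutant mean of Fech was 1.05 times the mean of the lowest detected levels of the wild-type arrays. That ratio describes nearness to detection and gives no evidence of a difference. Without mutant replicate 1 these differences were 0.41 for Hbb-bh1, 0.25 for Esam, −0.15 for Cldn5, 0.10 for Fstl1 and 0.088 for Twist1, while the fitted difference of Fech, which is no measured size, was 0.36 with all arrays and 0.39 without that array.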

How the data were processed

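The deposited signal table holds, per the file headers, a linear intensity and a detection p-value for each probe in every sample. A second deposited table holds intensities normalized by the authors, which quantile normalization of the first without background correction matched within 1.45%. Per the labels' protocols, amplification used the Illumina TotalPrep kit; scanner settings and slides are not stated there. Background correction used limma 3.58.1 under R 4.3.3 (normexp, negative controls inferred from detection p, offset 16), followed by log2 and quantile normalization over 6 arrays. Probes detected at p under 0.05 on at least 3 arrays were kept (19735 of 45281; 9 of the 13 member probes). The brightest probe stood for a gene, giving 13638 features. Symbols came from the platform annotation (34885 probes with 1 symbol, 18 with several, 10378 unnamed here); 34807 matched a RefSeq gene table by identifier.

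The genotypes were then contrasted by limma (lmFit, eBayes), with p adjusted by Benjamini-Hochberg over all features. The test was checked on simulated data. The members and lists were chosen with earlier results of these data known, and the 6 genes may have been published from these arrays, so the lists give no independent evidence of a direction. Beyond the members, the text names the 3 Hox5 genes and the 2 nearest profiles per member. It also names the 2 genes of smallest p in each family list and in 4 marker lists. Ptprz1, Pou6f1, Foxd3, Sox10, Isl1, Olig2 and Pax6 were added after their values were seen. The number of per-sample columns matching no sample was 0. Precision is limited by the number of arrays.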

Additional observations from a re-analysis of the deposited data

How the results depend on the processing

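Besides leaving out arrays, 12 settings were tried, and array weights and single arrays were what turned signs. Over the other 11 settings (10 for Cdh10, which is lost when detection on all 6 arrays is required) each of the 6 genes kept its direction, from −0.25 to −0.20 for Pou3f1, 0.57 to 0.86 for Alcam, 0.22 to 0.24 for Ptn, −0.41 to −0.35 for Pcdh10, 0.042 to 0.11 for Negr1 and 0.012 to 0.055 for Cdh10. With array weights Pou3f1 was at 0.19, Ptn at −0.13, Pcdh10 at 0.013 and Hoxb5 at 0.0092. Without both arrays numbered 1, chosen after seeing the data, Pou3f1 was at 0.24, Ptn at −0.17, Pcdh10 at 0.044 and Sdc2 at −0.057; the cause was not tested. Leaving out each array in turn gave −0.64 to 0.17 for Pou3f1, −0.21 to 0.48 for Ptn, −0.091 to 0.25 for Negr1, −0.11 to 0.29 for Cdh10, 0.32 to 1.24 for Alcam, −0.70 to −0.017 for Pcdh10, −0.088 to 1.24 for Sdc2 and −0.15 to 2.12 for Cldn5. No member passed in any of these fits, with a lowest limma adjusted p of 0.834. The count of features past the adjusted threshold was 0 and became 1 with median scaling (Thap4, named after its value was seen) and 0 to 1 with single arrays left out (Cops8, likewise, without mutant replicate 3). Features at an unadjusted p under 0.05 numbered 250, and 160 without background correction, 161 with the authors' values, 161 with detection on all 6 arrays, 829 with no filter, 581 with array weights, 515 without both arrays numbered 1, 151 and 166 without wild-type replicates 2 and 3 and 448 without mutant replicate 3. With the replicate number as a block 0 features passed and 379 had an unadjusted p under 0.05. The deviations of same-numbered arrays correlated at 0.32, 0.013 and 0.10, and wild-type replicate 2 correlated best with mutant replicate 3 (0.39). With 3 arrays per group these values cannot show whether same-numbered samples were handled together, and the labels give only a number. A slide block was not run because no slide is given. Signal over background limits Cdh10, whose brightest probe was not detected on mutant replicate 1, and leaving out single arrays turned its sign in 3 of 6 fits.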
